A study of Rattus norvegicus with 6 samples.

Results

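Enpp2 and Car2 code for 2 enzymes known from oligodendrocytes, the cells that wrap axons of the central nervous system in myelin. Both were followed here by their Ensembl gene identifiers, ENSRNOG00000004089 for Enpp2 and ENSRNOG00000009629 for Car2, and each had 1 probe among the 20174 gene probes of the array. The names belong to the choice of these identifiers: the array files pair no identifier with a name, and none of the identifiers tested (0 of 15437) was found in the rat RefSeq gene table, although that table lists both symbols. Total RNA from cultured rat oligodendrocyte precursors, grown in Raff medium, was measured on 6 single-colour (Cy5) arrays. The control group was 3 arrays from day 0, before differentiation, and the other group was 3 arrays from day 3, after the growth factors had been changed to let the cells differentiate. In each group, 2 arrays carry a number in their title and 1 does not, and the arrays are named accordingly below. No genotype, strain or animal age is given in the sources used here. Nor do they say that arrays of one day stand for separate cultures, and a p-value below reflects array-to-array spread that may be purely technical.

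Enpp2 encodes autotaxin, a secreted lysophospholipase D that turns lysophosphatidylcholine into lysophosphatidic acid, a lipid that signals through cell-surface receptors. In rodents, oligodendrocytes release autotaxin as they begin to myelinate, and it acts on their attachment to the matrix and on the outgrowth of their processes. Car2 encodes the cytosolic carbonic anhydrase 2, which interconverts carbon dioxide and bicarbonate and so takes part in control of pH and in fluid and ion transport. In the rodent brain it is used as a marker of oligodendrocytes, and it is also found in other cells, among them choroid plexus epithelium.

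The deposited files give a median intensity for each spot, in scanner units, called the signal below. Between 74.3% and 83.4% of gene probes per array lay above a detection limit set from the blank spots (13.9 to 16.9 units), and the median gene signal ran from 26.4 to 38.9. Both enzymes were above that limit on all 6 arrays, and no reading of either was marked as failed at any of the 3 scanner gains. The identifiers of marker genes for oligodendrocytes, precursors, astrocytes, microglia, choroid plexus and other cells could not be paired with names, so the makeup of the cultures and the other genes of both enzymes' pathways were not analysed here.

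The signals of the enzymes went in opposite directions between the days: Enpp2 was higher at day 3 and Car2 was lower, each on all 3 arrays of the group. Neither difference passed the threshold (adjusted p under 0.05) in the test across all genes of the signal itself. In the value table the authors deposited, the difference passed for Car2 and not for Enpp2. The values follow for each enzyme in turn.

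Enpp2 had a signal of 214, 293 and 180 units at day 0, on number 1, number 2 and the unnumbered array. At day 3 its signal was 335, 912 and 502 units in the same order. The lowest day 3 array thus lay above the highest day 0 array, and day 3 number 2 stood well above the other day 3 arrays. The mean was 229 ± 58.1 units for day 0 and 583 ± 297 for day 3 (SD, n = 3), so the spread between arrays was larger at day 3. The background beside the Enpp2 spot, described below, took up 90.8% to 99.7% of the day 0 signal. Enpp2 was 10.7 to 17.3 times the detection limit of the blank spots at day 0 and 24.1 to 58.2 times at day 3. Its probe moved up among the gene probes of each array as well, from the 75.3rd to 81.7th percentile of signal at day 0 to the 85.3rd to 93.5th at day 3.

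Car2 had a signal of 490.0, 211 and 621 units at day 0, on number 1, number 2 and the unnumbered array. At day 3 its signal was 114, 78.2 and 96.1 units in the same order. Here the spread lay at day 0, where number 2 had less than the other arrays, and the day 3 arrays were close together. The mean was 441 ± 209.7 units for day 0 and 95.9 ± 17.7 for day 3 (SD, n = 3), and the groups did not overlap. Car2 remained above the detection limit at day 3, by 4.99 to 8.16 times, against 12.4 to 36.8 times at day 0. Its place among the gene probes of an array went from the 78.0th to 89.5th percentile at day 0 to the 67.0th to 73.1st at day 3.

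**Figure D1:**
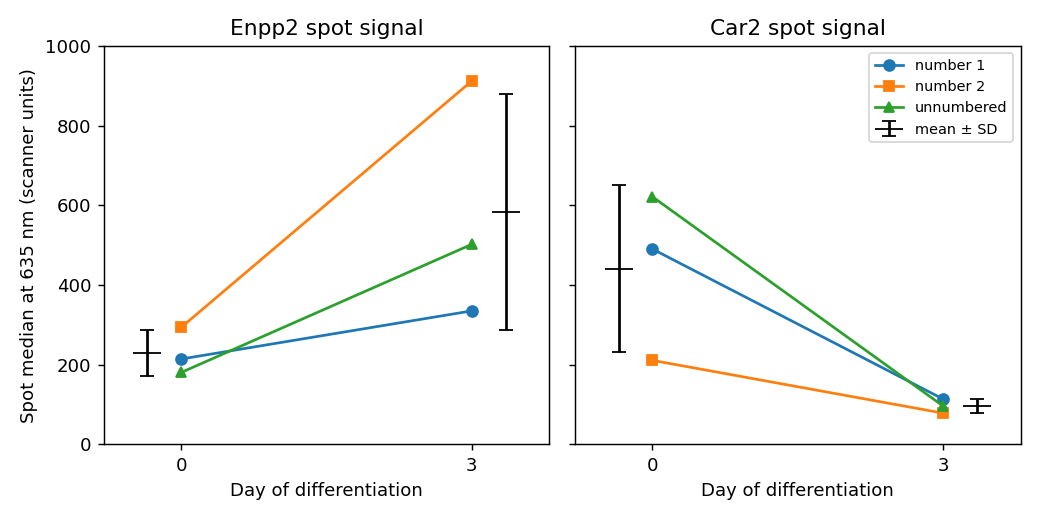
Spot signal of Enpp2 (left) and Car2 (right) in scanner units against the day, with 1 point per array, lines joining arrays of the same title number (the unnumbered arrays are joined to each other), and bars for the mean ± SD of 3 arrays. All 3 lines go up for Enpp2, from 180 to 293 units to 335 to 912, and down for Car2, from 211 to 621 units to 78.2 to 114.

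For the test, the signal plus an offset of 50 was put on the log2 scale and quantile normalised between arrays. A fold change on this scale understates the change of dim genes. On it, Enpp2 had a mean of 7.98 ± 0.32 before and 9.36 ± 0.73 after differentiation (SD, n = 3). The difference, day 3 minus day 0, was 1.38 (SE 0.41, 95% interval 0.34 to 2.41), which is 2.59-fold, and its adjusted p was 0.235 (limma, Benjamini-Hochberg over 15437 genes). Car2 had a mean of 8.74 ± 0.71 before and 7.27 ± 0.24 after differentiation (SD, n = 3). Its difference was -1.47 (SE 0.39, 95% interval -2.45 to -0.49), or 2.77-fold higher at day 0, with an adjusted p of 0.193 (limma). The unadjusted limma p was 0.0188 for Enpp2 and 0.0118 for Car2.

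These results are read against those of all genes. Among the 15437 genes tested, 0.726% were called as higher at day 3 and 0.317% as lower (limma, adjusted p under 0.05), or 112 and 49 genes, and median scaling in place of quantile normalisation gave 80 and 62. An unadjusted p under 0.05 was reached by 7.06% of genes in the direction of Enpp2 and 6.11% in that of Car2. Groups that did not overlap, as seen for both enzymes, occurred upwards in 10.2% of genes and downwards in 9.11%. The lack of overlap therefore does not set either enzyme apart. In size the differences were less common. A difference of over 2-fold was seen upwards in 1.49% of genes and downwards in 0.797%. Of all genes tested, 115 genes had a larger difference upwards than Enpp2, and 29 had a larger one downwards than Car2. These ranks depended on the scale: the counts were 287 and 72 in the deposited value table and 146 and 288 in the background-corrected values, both described below. Both enzymes also varied more between arrays of a group than most genes, with a residual SD of 0.56 for Enpp2 and 0.53 for Car2 on the log2 scale, against a median of 0.14 over all genes tested. The offset narrows the spread of dim genes. In the deposited value table, which has none, the residual SD was 0.59 for Enpp2 and 0.74 for Car2 against a median of 0.46, and in the background-corrected values it was 0.71 and 0.73 against 0.13.

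**Figure D2:**
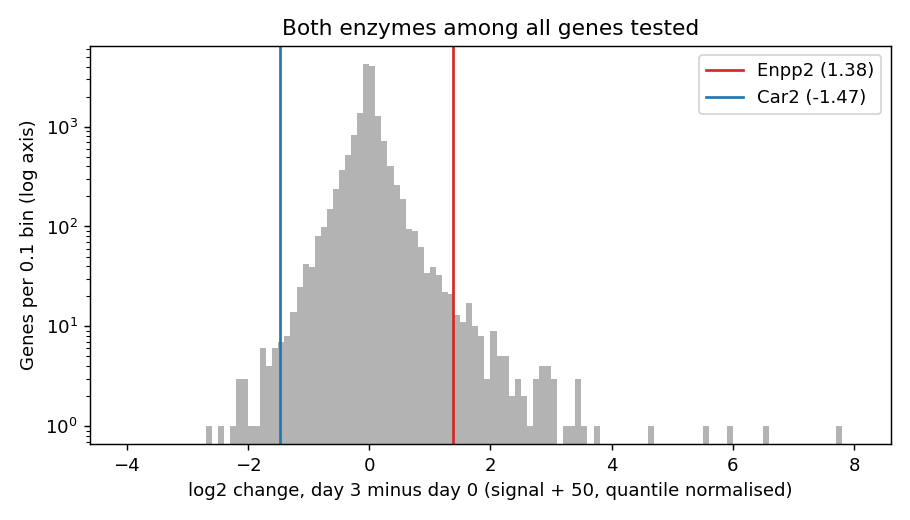
Number of genes per 0.1 bin (log axis) against the log2 change, day 3 minus day 0, of the 15437 genes tested, with vertical lines at Enpp2 and Car2. The lines stand at 1.38 and -1.47, on opposite flanks of a distribution whose median is -0.0042.

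The direction was the same in all 3 pairs of arrays, as it must be where the groups do not overlap. Enpp2 differed by 0.90 in the pair numbered 1, by 1.82 in the pair numbered 2 and by 1.40 in the unnumbered pair on the log2 scale of the signal itself. Car2 differed by -1.32, -0.86 and -2.23 in the same order. The pair with the largest difference for Enpp2 was thus the one with the smallest for Car2. In signal, the day 3 array of a pair had 1.56, 3.11 and 2.78 times as much Enpp2 as its day 0 array, and the day 0 array had 4.32, 2.69 and 6.46 times as much Car2 as its day 3 array. The title style was treated as a possible batch. Within the numbered arrays alone, 2 against 2, the difference was 1.36 for Enpp2 (adjusted p = 0.499, limma) and -1.09 for Car2 (adjusted p = 0.425, limma). The unnumbered style holds 1 array per day, so it gives a value and no test.

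Whether the enzymes changed by different amounts was asked of the log2 difference between them on each array. Enpp2 minus Car2 was -1.005, 0.37 and -1.65 at day 0, on number 1, number 2 and the unnumbered array, and 1.22, 3.05 and 1.97 at day 3. A level of one probe cannot be set against that of another, and only the move of this difference between the days is read. The mean difference went up by 2.84. Its groups did not overlap, which had to follow, since Enpp2 groups lay apart upwards and Car2 groups downwards. The two-sided exact permutation p over the 6 arrays was 0.10, the smallest that 3 arrays against 3 can give. That p was fixed by the order of the arrays already described for each enzyme, and is no further evidence. Within the pairs this difference moved by 2.23, 2.68 and 3.63, all upwards. The exact permutation of signs over 3 pairs gave a two-sided p of 0.25, again the smallest it can give and fixed in the same way. As these are bulk cultures, fewer cells that express an enzyme and less of its RNA per cell cannot be told apart.

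The authors' deposited value table was examined as well. Its values are an exact straight line through the signal of the same array: a constant was subtracted that lay within 0.00087 units of the trimmed mean of the blank spots, the median of the listed values was set to 25, and spots near or below the detection limit were left empty. Enpp2 had values of 117, 132 and 91.0 at day 0 and 217, 631 and 315 at day 3, on number 1, number 2 and the unnumbered array. Car2 had values of 279, 92.9 and 335 at day 0 and 67.9, 44.8 and 52.5 at day 3. The groups did not overlap for either enzyme, which was so upwards in 7.59% of the genes listed on all arrays and downwards in 6.33%. Here too day 0 number 2 was the lowest day 0 array for Car2, and day 3 number 2 the highest for Enpp2. The group means were 113 ± 20.9 and 388 ± 216 for Enpp2 and 235 ± 127 and 55.1 ± 11.8 for Car2 (SD, n = 3).

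On the log2 scale of this table, with no offset, Enpp2 was 1.64 higher at day 3 (SE 0.42, adjusted p = 0.0635, limma), or 3.13-fold. Car2 fell by 1.92 (SE 0.47, adjusted p = 0.0497, limma), or 3.79-fold. Of the 14431 genes listed on all 6 arrays, 1.84% were called as higher at day 3 and 0.561% as lower. The call of Car2 was lost without day 0 number 1 (adjusted p = 0.337, limma), without the unnumbered day 0 array (adjusted p = 0.0746, limma) and without day 3 number 2 (adjusted p = 0.175, limma). Enpp2 was called without day 0 number 2 (adjusted p = 0.0377, limma) and without day 3 number 1 (adjusted p = 0.0206, limma). With the arrays paired by title number as a block in this table, both were called, at an adjusted p of 0.000142 for Enpp2 and 3.77e-06 for Car2 (limma). In that fit the method gave every gene 1 common variance, so these p-values do not use the spread of the enzymes' own probes. For the signal itself, the same block left both uncalled, at an adjusted p of 0.108 for Enpp2 and 0.155 for Car2 (limma). The SE there was 0.21 for Enpp2 and 0.32 for Car2, against 0.41 and 0.39 in the fit without the block.

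The deposited files also give a background median beside each spot, which was not subtracted above because it followed the signal of its own spot (Spearman correlation 0.92 to 0.97 across gene spots of an array; genes are not independent replicates). For Enpp2 it took up most of the signal, nearly the whole of it at day 0: 97.9%, 99.7% and 90.8% at day 0 and 87.0%, 71.7% and 93.0% at day 3, on number 1, number 2 and the unnumbered array. Signal minus background was 4.49, 1.02 and 16.6 units at day 0 and 43.5, 258 and 35.2 at day 3 for Enpp2. These groups did not overlap, but the share of all genes for which this was so was not counted on that scale. Day 3 number 2 stood far above the other arrays. For Car2 the share was uneven between arrays, at 80.7%, 71.0% and 19.6% at day 0 and 80.8%, 43.5% and 52.3% at day 3. Signal minus background was 94.8, 61.0 and 499 units at day 0 and 21.8, 44.1 and 45.8 at day 3, so the unnumbered day 0 array carried most of the difference on that scale. It is also the array with the lowest share of background for Car2.

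**Figure D3:**
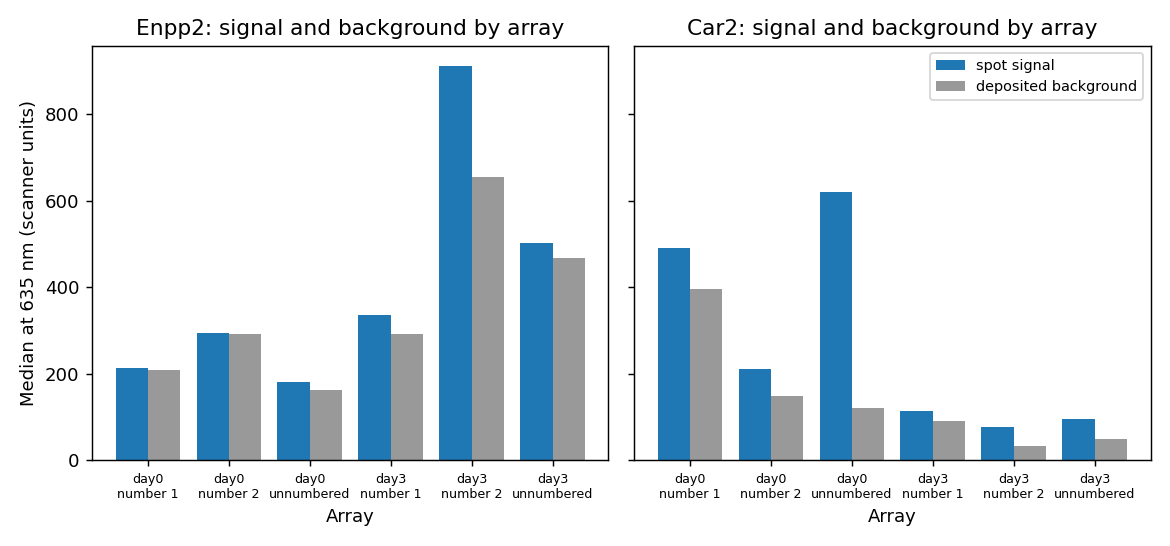
Spot signal (blue) and deposited background (grey) in scanner units on each of the 6 arrays, for Enpp2 (left) and Car2 (right). The grey bar nearly reaches the blue one for Enpp2 on every day 0 array (90.8% to 99.7%), while for Car2 it stands at 19.6% on the unnumbered day 0 array and between 43.5% and 80.8% on the others.

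When the background was used in normexp, a model-based correction, with the same offset and scaling, the differences were smaller. Enpp2 was 1.16 higher at day 3 (SE 0.52, 95% interval -0.19 to 2.51, adjusted p = 0.765, limma), and Car2 differed by -0.90 (SE 0.54, 95% interval -2.30 to 0.49, adjusted p = 0.852, limma). On this scale too, neither enzyme's groups overlapped, as in 7.26% of genes upwards and 5.95% downwards. With these values 0.0259% of genes were called as higher and 0.00648% as lower. Without overlap, the pairs must keep their direction. They were unequal: Enpp2 differed by 0.70, 2.37 and 0.40 and Car2 by -0.69, -0.064 and -1.96, on number 1, number 2 and the unnumbered pair.

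**Figure D4:**
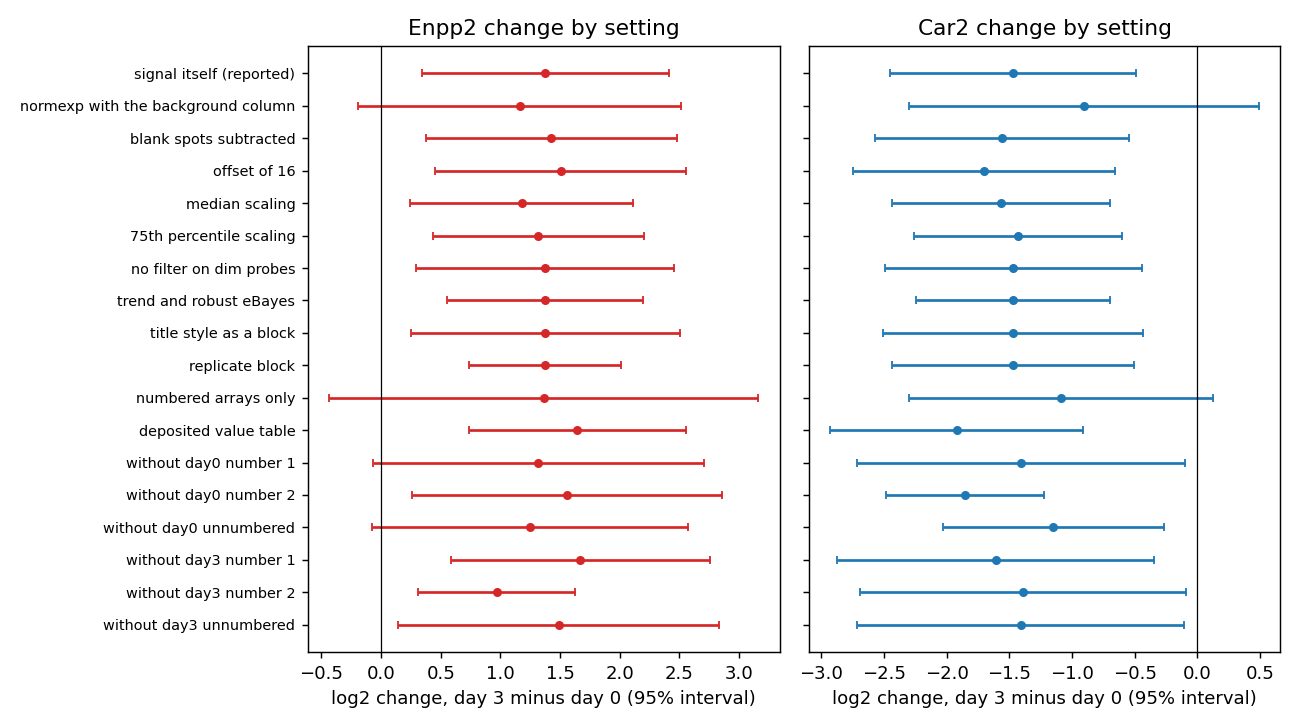
Log2 change, day 3 minus day 0, of Enpp2 (left) and Car2 (right) with its 95% interval. It is shown for the signal itself and for 17 other ways of processing, which include subsets of the arrays. With no filter, with trend and robust eBayes and with either block, only the interval can differ. All points for Enpp2 lie above 0, from 0.97 to 1.67, and all for Car2 below 0, from -1.92 to -0.90, while some intervals cross 0.

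The spots around the probes were read as a check on the signal. The Enpp2 spot lies next to a gene spot in the adjacent row that was far brighter, with 9569 ± 2163 units before and 5591 ± 1157 after differentiation (SD, n = 3), a difference in the opposite direction to that of Enpp2. The spot on its other side in the column had 252 ± 62.9 units before and 179 ± 4.54 after (SD, n = 3). The neighbours within its row had 13.4 to 23.8 units on all arrays. Over each array, gene spots beside a spot above 4000 units in an adjacent row had a median of 28.5 to 42.2 units, against 24.9 to 36.9 units for those beside no such spot. For Car2, 3 of the 4 adjacent spots had 13.5 to 34.2 units on all arrays. The fourth, in the next row, had 134 ± 17.2 units before and 59.8 ± 12.1 after (SD, n = 3), and so was lower at day 3, as was Car2. What part adjacent spots have in the signals was not tested.

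The gene whose pattern over the 6 arrays was most like that of each enzyme was found by the root mean square distance between normalised log2 values, each centred on its own mean. For Enpp2 this was ENSRNOG00000016544, at a distance of 0.21, where the median over all other genes tested was 0.83. Its signal was 37.7, 84.6 and 42.6 units at day 0 and 152, 297 and 209.9 at day 3, with number 2 the highest array of each day, as for Enpp2. Its log2 difference was 1.53 (SE 0.28, adjusted p = 0.104, limma), and 1.39 in the background-corrected values (adjusted p = 0.306, limma). For Car2 it was ENSRNOG00000011245, at a distance of 0.26, where the median was 0.86. Its signal was 525, 427 and 715 units at day 0 and 170.0, 83.0 and 126 at day 3, with number 2 the lowest array of each day, as for Car2. Its log2 difference was -1.59 (SE 0.31, adjusted p = 0.114, limma), and -0.30 in the background-corrected values (adjusted p = 0.972, limma). Both genes were picked as the closest of all tested, so a small distance and a like pattern follow from the choice. A flat profile would lie at a distance of 0.83 from Enpp2 and 0.85 from Car2. Both likenesses are descriptions over 6 arrays and carry no test.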

How the data were processed

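Spot intensity was deposited as a median at 635 nm, with a median for the background, in scanner units and from readings at 3 gains, per the file headers. Per the labels' protocols, RNA was amplified to amino-allyl RNA and coupled to Cy5. Also deposited was a table of processed intensity, whose construction was read from its values, since no source used here states it. The members and the settings were chosen with earlier results of these data known. Since the background column was already known to follow the spot signal it was left out, and normexp with it (offset of 50, fitted on all spots) is given beside the differences between the days. In R 4.3.3 with limma 3.58.1, control spots were left out, and genes above the mean plus 2 SD of the blank spots (5% trimmed at each end) on all arrays of at least 1 group were tested with lmFit and eBayes over 6 arrays. Deviations from group means correlated within title pairs at 0.27, 0.48 and 0.60 across genes in the signal itself. In the deposited table these correlations were 0.28, 0.41 and 0.58, and in the background-corrected values 0.088, 0.14 and 0.24. The differences reported first come from a fit without pairing. Pairing by title was an alternative fit for the signal itself and the deposited table, and was not taken for the background-corrected values. The numbered pairs follow the title numbers. The unnumbered arrays share no number, and that pair rests on the data. Named genes were the 2 enzymes and, for each, the gene closest in pattern. Lists of pathway and marker genes were not used here, because identifiers could not be paired with symbols. The number of arrays limits the precision.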

Additional observations from a re-analysis of the deposited data

How the results depend on the processing

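Over 17 other ways of processing, which include subsets of the arrays, the Enpp2 difference ran from 0.97 to 1.67 (log2). It was never called (adjusted p from 0.0635 to 0.765, limma). That of Car2 ran from -1.92 to -0.90 (adjusted p from 0.0497 to 0.852, limma) and was called only in the deposited value table (-1.92). Neither changed sign. Leaving out each array gave 0.97 to 1.67 for Enpp2 and -1.85 to -1.15 for Car2. The move of Enpp2 minus Car2 ran from 2.06 to 3.57 over 15 of these. The title style and replicate blocks can alter only its p, and they left the move at 2.84. Its exact permutation p cannot go below 0.10 with these arrays. With each array left out in turn it was 0.10, except without day 3 number 2, where it was 0.20. This was so for the signal itself and for the deposited value table. The fits that combine the deposited table with a further choice were added after seeing the data. There, with the replicate block, Enpp2 (1.64) and Car2 (-1.92) were called. So they were with trend and robust eBayes (adjusted p = 0.0140 and 0.0120, limma) and with both (adjusted p = 2.35e-06 and 1.62e-07, limma). In this table, fits with the block took the variance from all genes. Their p-values do not use the spread of the enzymes' own probes. Leaving out each array gave 1.22 to 1.99 for Enpp2, called without day 0 number 2 (1.76) and day 3 number 1 (1.99), and -2.49 to -1.57 for Car2, called at -2.49 without day 0 number 2, at -2.08 without day 3 number 1 and at -1.90 with the unnumbered array of day 3 left out. The replicate block changed no call of the signal itself for either enzyme.

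The 112 genes called up and 49 called down became 4 and 1 with normexp, 266 and 81 in the deposited table, 294 and 97 under trend and robust eBayes, and 0 and 0 in the numbered arrays alone (limma; 2009 genes at an unadjusted p under 0.05). The count up became 186 with 75th percentile scaling, which shifted the median of all genes by 0.12, and 64 with no filter. The count down became 114 with title style as a block. Leaving out each array gave 0 to 75 up and 1 to 18 down; without day 0 number 1 no gene was called up by limma, while 1700 reached an unadjusted p under 0.05. The replicate block gave 95 and 42. The cause of these changes was not tested.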
